A study of Homo sapiens with 6 samples.

Results

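The clustered histone genes, which encode the replication-dependent histones H1, H2A, H2B, H3 and H4, were examined in RNA-seq of TE-1 cells with and without overexpressed FGL1. The members are the genes whose name in the gene table begins with HIST1, HIST2, HIST3 or HIST4 followed by one of these 5 histone types. The rule found 52 of the 12180 genes listed, namely 5 H1, 13 H2A, 12 H2B, 10 H3 and 12 H4 genes. Of these, 40 belong to the HIST1 cluster on chromosome 6, 11 to the HIST2 cluster on chromosome 1, and HIST4H4 lies alone on chromosome 12, while the table lists no gene named HIST3. Being listed was itself a selection on measured values, since the table holds only genes whose mean FPKM was about 0.5 or more in at least 1 of the groups compared. The members with the lowest such mean were HIST2H3D at 0.506, HIST1H2BH at 0.564 and HIST2H2AB at 0.570 FPKM in the group where each was higher. Genes of these families that are not listed were not analysed here.

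TE-1 is a cell line from a human esophageal squamous cell carcinoma (ESCC). FGL1-OE cells carry lentivirally delivered FGL1, which encodes a secreted fibrinogen-like protein, and 3 libraries of them were compared with 3 libraries of control cells. The labels call the genotype of the controls WT, whereas the study's controls carry random nonsense sequences, and they are named NC here. Nothing in the sources used here says whether the libraries of a group came from separate cultures or whether the lines are clones, so p-values measure only the spread between these libraries. The labels name no other treatment or allele in either group.

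Replication-dependent histone mRNAs are produced in S phase to package newly made DNA. Unlike other mRNAs they have no introns and, in their usual form, no poly(A) tail, and they end just after a conserved stem-loop that is bound by the stem-loop binding protein SLBP. Several of these genes also make longer, polyadenylated mRNAs that pass the stem-loop, which is known from cells that have stopped dividing. The libraries were made from RNA enriched with oligo(dT) beads, and the labels' protocol names removal of ribosomal RNA as an alternative in brackets. FPKM of these genes in such libraries is therefore a reading of the RNA that the enrichment retained, and the share of each gene's mRNA that was retained was not measured.

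The stem-loop separates the histone mRNA forms from one another, so its letters are shown first. A stem-loop of 16 bases was found in 21 listed transcripts of 20 members in GENCODE v29, and 5 different forms of it occurred. The search used a fixed pattern of bases, so forms that depart from the pattern could not be found. The most frequent form was found in 12 genes of types H2A, H2B and H3, and the next in 4 H4 genes. In the sequences that follow, read 5′ to 3′ from GENCODE transcripts, the stem-loop is in capitals, and 1 gene stands for each form.
HIST1H2BL: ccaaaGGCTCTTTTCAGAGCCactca
HIST1H4J: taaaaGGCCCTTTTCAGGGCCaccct
HIST1H2BD: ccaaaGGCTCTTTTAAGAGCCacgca
HIST1H2AG: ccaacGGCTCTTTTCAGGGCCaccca
HIST2H4B: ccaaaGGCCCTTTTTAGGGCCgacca
The transcript of HIST1H2BL ends 40 bases after the stem-loop, and that of HIST1H4J ends 6 bases after it. The transcript of HIST1H2AG runs on for 1761 bases. By this annotation, the listed transcripts of 22 members hold only the coding sequence. Those of 6 members end within 100 bases of the stem-loop, and those of 17 members include a spliced form or one that runs further. In 14 of the 17, a transcript has the polyadenylation signal AATAAA in its last 60 bases. The signal is not particular to this class. Among the 6 members that end near the stem-loop, HIST1H4J and HIST2H2AA4 have it too. HIST1H1E and HIST1H4C fitted none of these classes, because the pattern was not found in their transcripts. Whether they hold another form of the stem-loop was not examined. The 5 genes HIST1H2BF, HIST1H2BG, HIST1H4B, HIST2H2AA3 and HIST2H4A had no listed transcript in this release or none at all.

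Promoters of 50 members were found in RefSeq (GRCh38.p14, 54 windows of 300 bases, most of them before the start), and HIST1H4A and HIST1H4C had none there. Those of HIST1H4J and HIST1H4K are shown because both genes were higher in all FGL1-OE libraries, that of HIST1H2BL because it had the largest difference upwards, and that of HIST1H1C because it was the H1 gene with the highest level. Capitals mark matches on either strand to the octamer ATTTGCAT, to AAACACA, which is known from H1 promoters, to CCAAT and to TATAAA.
HIST1H4J: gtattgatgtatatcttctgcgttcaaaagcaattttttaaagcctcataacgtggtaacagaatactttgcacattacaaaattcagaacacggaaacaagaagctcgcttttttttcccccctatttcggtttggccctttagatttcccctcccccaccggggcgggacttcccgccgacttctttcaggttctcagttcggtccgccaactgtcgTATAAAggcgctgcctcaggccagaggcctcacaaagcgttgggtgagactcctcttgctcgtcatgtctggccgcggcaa
HIST1H4K: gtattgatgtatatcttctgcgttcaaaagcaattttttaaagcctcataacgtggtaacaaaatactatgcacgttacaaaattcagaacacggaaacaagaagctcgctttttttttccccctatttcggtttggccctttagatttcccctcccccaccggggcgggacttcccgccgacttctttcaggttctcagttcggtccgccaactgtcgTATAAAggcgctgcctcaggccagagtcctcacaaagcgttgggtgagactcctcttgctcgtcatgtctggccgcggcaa
HIST1H2BL: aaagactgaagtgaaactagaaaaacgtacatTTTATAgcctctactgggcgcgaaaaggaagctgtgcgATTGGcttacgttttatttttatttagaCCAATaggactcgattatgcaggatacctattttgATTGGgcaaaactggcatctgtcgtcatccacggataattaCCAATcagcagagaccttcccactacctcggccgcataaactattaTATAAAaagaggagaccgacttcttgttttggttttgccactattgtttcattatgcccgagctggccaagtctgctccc
HIST1H1C: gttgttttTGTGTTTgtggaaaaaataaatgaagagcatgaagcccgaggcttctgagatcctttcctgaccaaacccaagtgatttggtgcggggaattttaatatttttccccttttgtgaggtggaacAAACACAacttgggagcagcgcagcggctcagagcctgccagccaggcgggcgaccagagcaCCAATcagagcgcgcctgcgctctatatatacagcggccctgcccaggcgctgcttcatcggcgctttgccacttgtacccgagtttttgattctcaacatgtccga
These windows lie at chr6:27823842-27824141 on the plus strand, chr6:27831511-27831810 on the minus strand, chr6:27807880-27808179 on the minus strand and chr6:26056421-26056720 on the minus strand. The HIST1H4J and HIST1H4K windows have the same base at 295 of 300 positions. The HIST1H2BL window shares 257 of its bases with that of HIST1H2AI, the H2A gene that starts beside it on the opposite strand. ATTTGCAT was found in 11 of 14 H2B windows, 9 of 13 H2A windows and 1 of 12 H3 windows. It was found in none of the H1 and H4 windows and in 1.77% of all 35116 promoters. The windows are not all separate, since HIST1H2BD and HIST1H2BK have overlapping windows and neighbouring H2A and H2B genes can share a match. The H3 window that holds it belongs to HIST1H3D and is also the HIST1H2AD window. AAACACA was found in 5 of 5 H1 windows and in 5.64% of all promoters. CCAAT was present in every H1, H2A, H2B and H3 window but in 1 of 10 H4 windows, against 34.6% of all promoters, and TATAAA in 70.4% of the members' windows against 11.5%. A match describes the letters of a window and is no measure of binding.

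FGL1 was measured at 33.5, 39.3 and 39.9 FPKM in the FGL1-OE libraries, and the NC libraries were at 0.0202, 0 and 0.106 FPKM. Its log2 fold change was 5.21 (SE 0.15, adjusted p = 1.29e-05), and it was the 1 gene of 12017 tested (0.00832%) with an adjusted p-value under 0.05 in limma with Benjamini-Hochberg adjustment. The listed FPKM values summed to between 210904 and 226307 per library, and since the tables hold no counts, the depth is unknown. The spread was wider within NC. Correlations of log2(FPKM + 1) across genes were between 0.885 and 0.964 for pairs of NC libraries and between 0.981 and 0.986 for pairs of FGL1-OE libraries. On this scale the typical (median) SD within NC was 0.31 both for all genes and for the tested members, and within FGL1-OE it was 0.12 for all genes and 0.19 for the members. Of the squamous and basal markers, KRT5, KRT6A, KRT17, DSG3, SFN and TP63 were listed, TP63 at 0.299 to 0.779 FPKM, whereas KRT14, SOX2 and PKP1 were not listed. KRT6A and SFN were at 108 to 197 and 198 to 459 FPKM. KRT5, DSG3 and KRT17 were at 4.27 to 6.24, 6.42 to 11.3 and 6.13 to 15.8 FPKM. The simple epithelial markers EPCAM, KRT8, KRT18 and KRT19 were at 90.5 to 122, 218 to 465, 294 to 505 and 400.5 to 917 FPKM. Of 8 markers of immune, endothelial and fibroblast cells, 3 (CD68, COL1A1 and COL1A2) were listed, with a sum of 7.93 to 10.4 FPKM in NC and 6.90 to 9.13 FPKM in FGL1-OE.

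Clustered histone mRNA was present in every library, and a few genes held most of the summed FPKM. FPKM of the 52 members summed to 307, 328 and 309.9 in NC 1 to 3 and to 379, 333 and 349.7 in FGL1-OE 1 to 3. FGL1-OE 1 was the highest, and FGL1-OE 2 lay close to NC 2. The H2B genes contributed 147 to 169 FPKM of these sums, the H1 genes 55.0 to 75.5, the H2A genes 45.4 to 66.0, the H4 genes 40.8 to 54.0 and the H3 genes 9.53 to 13.9. Alone, HIST1H2BK and HIST1H1C made up between 42.9% and 51.0% of the sum, and the 6 highest members between 66.6% and 69.0%. Mean FPKM was 10 or more in 6 members, between 3 and 10 in 9, and under 3 in 37. FPKM is scaled to annotated length, and 22 members, HIST1H2BK and HIST1H1C among them, are annotated with coding sequence only. Levels can therefore be set side by side between genes only with caution. Members that share sequence can also share reads. Over 80% of the 31-base words of the annotated transcripts of 12 members occur in another gene.

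**Figure D1:**
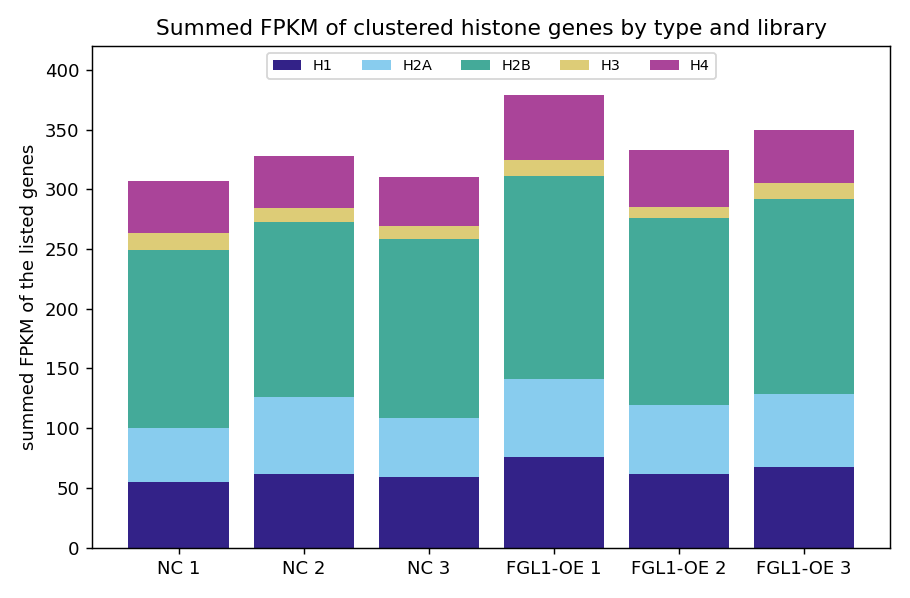
Stacked bars give, for each of the 6 libraries on the horizontal axis, the summed FPKM of the listed clustered histone genes, with 1 colour for each histone type. The H2B genes form the thickest band in all libraries (147 to 169 FPKM), and the full bars reach 307 to 328 FPKM in NC and 333 to 379 FPKM in FGL1-OE.

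Compared with NC, the clustered histone genes leaned slightly to higher FPKM in FGL1-OE, and none of them passed the threshold on the adjusted p-value. The test covered the 47 members whose mean FPKM in all 6 libraries together reached 0.5 and used limma on log2(FPKM + 1), a scale that understates the change of genes with low values. The other 5 (HIST1H2BH, HIST2H2AB, HIST1H2BE, HIST2H3D and HIST1H4L) had means from 0.386 FPKM up to just under that value. Of the 47, 33 had higher and 14 lower fitted values in FGL1-OE. Among the 33, HIST1H4D, HIST1H3A, HIST2H2BF and HIST4H4 had NC means under 0.5 FPKM and reached the filter only through FGL1-OE. Without the filter, 35 of the 52 members were higher and 17 lower. The median log2 fold change of the 47 was 0.15, with a range from -1.23 to 0.87. Over all 12017 genes the median was 0.016, with 6455 higher and 5562 lower. Every tested member had an adjusted p-value of 1.00 (limma, Benjamini-Hochberg adjustment). An unadjusted p-value under 0.05 was found for 4 members in the upward direction (HIST1H2BL, HIST1H4J, HIST1H4K and HIST1H2BJ), where it was found for 1.21% of all genes, and for 1 downward (HIST1H2AD), where the background is 0.807%. All FGL1-OE libraries lay above all NC libraries in 6 members (HIST1H2BL, HIST1H4J, HIST1H4K, HIST2H2AA3, HIST2H2AA4 and HIST4H4), as in 4.09% of all genes. These are not 6 separate measurements, since HIST1H4J and HIST1H4K share most of their sequence, as do HIST2H2AA3 and HIST2H2AA4. HIST4H4 reached the filter only through FGL1-OE (means of 0.444 FPKM in NC and 0.719 FPKM in FGL1-OE), and the count was 5 when a mean of 1 FPKM was required. HIST1H2AD was the 1 member with all FGL1-OE libraries below all NC libraries, as in 3.06% of all genes. An exact two-sided permutation test of 3 libraries against 3 cannot give a p-value below 0.1. NC 2 stood apart from the other NC libraries. Without it, 12 members had an unadjusted p-value under 0.05 upward and 3 downward, but so did 11.2% and 10.6% of all genes, and the adjusted p-values of these members were between 0.194 and 0.227. The median log2 fold change was then still 0.15. In bulk RNA, more cells in S phase and more histone mRNA per cell cannot be told apart.

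**Figure D2:**
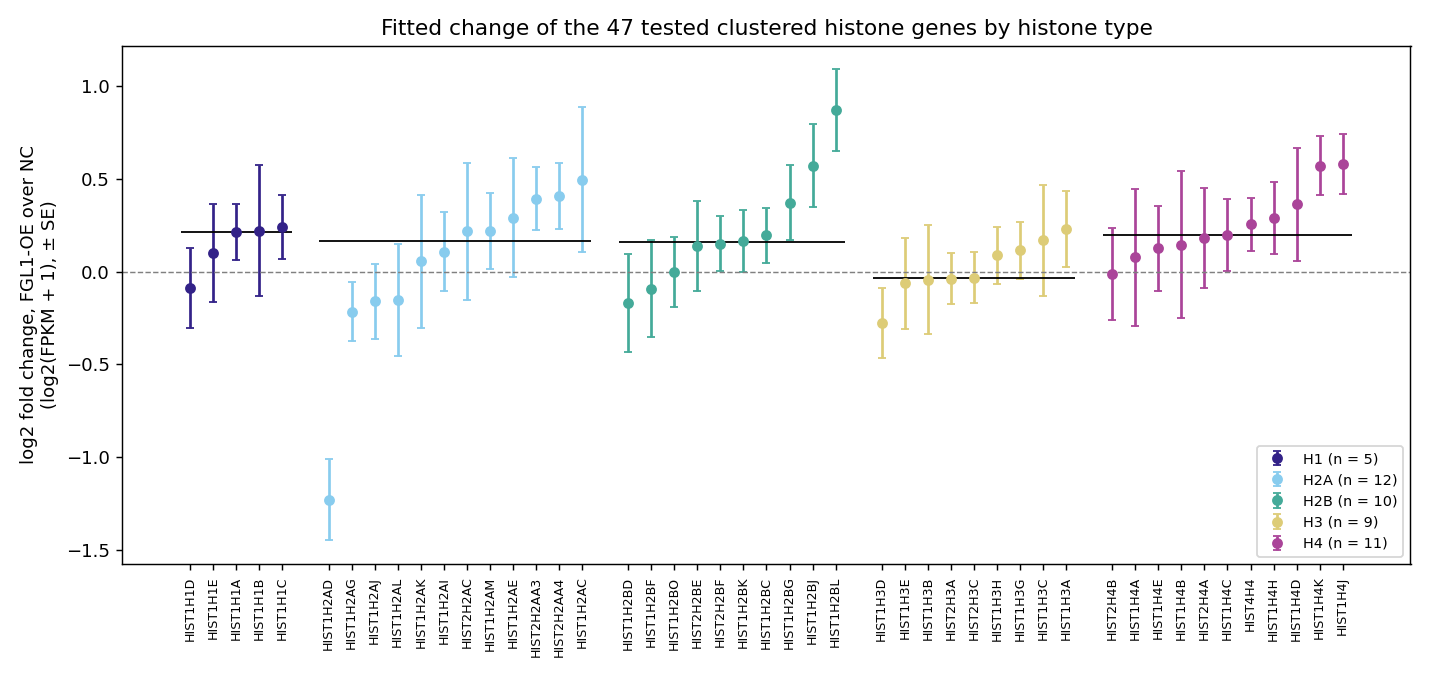
Points give the log2 fold change of FGL1-OE over NC on the log2(FPKM + 1) scale for each of the 47 tested members, with bars for the SE from limma and genes grouped and coloured by histone type along the horizontal axis. Black lines mark the median of each type, which lies between 0.16 and 0.22 for H1, H2A, H2B and H4 and at -0.032 for H3, and HIST1H2AD stands alone at -1.23.

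H1 is the linker histone, which binds DNA where it enters and leaves the nucleosome. HIST1H1C was the second most abundant member, with 42.9, 56.3 and 48.5 FPKM in NC 1 to 3 and 65.4, 51.1 and 58.3 FPKM in FGL1-OE 1 to 3. The groups overlapped, since FGL1-OE 2 was below NC 2 (49.2 ± 6.72 and 58.3 ± 7.14 FPKM, SD, n = 3, log2 fold change 0.24, SE 0.17). The other H1 genes were far lower, HIST1H1E with a mean of 4.54 FPKM and HIST1H1A, HIST1H1B and HIST1H1D with 1.88, 1.81 and 1.40 FPKM. The median log2 fold change of the 5 H1 genes was 0.22, with 4 of 5 higher in FGL1-OE, and was -0.17 when NC 2 and 0.13 when FGL1-OE 2 was left out.

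H2A pairs with H2B in the nucleosome, and the near-identical genes HIST2H2AA3 and HIST2H2AA4 were the most abundant H2A members together with HIST1H2AC. HIST2H2AA4 was at 11.04, 14.2 and 12.6 FPKM in NC and at 20.2, 14.6 and 16.6 FPKM in FGL1-OE. HIST2H2AA3 was at 6.28, 8.04 and 7.27 FPKM in NC and at 11.5, 8.45 and 9.38 FPKM in FGL1-OE. In both genes the FGL1-OE libraries lay above NC without overlap, by a narrow margin between FGL1-OE 2 and NC 2. Their log2 fold changes were 0.41 (SE 0.18) and 0.39 (SE 0.17). All 31-base words of the HIST2H2AA4 transcript occur in its copy, and its identifier carries the name HIST2H2AA3 in GENCODE v29, so the values of this pair cannot be assigned to either gene with certainty. The HIST2 cluster holds the pair at chr1:149813505-149814478 and chr1:149822643-149823191 (GRCh37).

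HIST1H2AC and HIST1H2AM overlapped between the groups. HIST1H2AC was at 5.11, 19.3 and 9.54 FPKM in NC and at 14.3, 13.5 and 15.5 FPKM in FGL1-OE, so that NC held both the lowest and the highest library. Its log2 fold change was 0.49 (SE 0.39) and moved between 0.075 and 0.94 when single libraries were left out. HIST1H2AM was at 4.88, 4.11 and 5.99 FPKM in NC and at 4.49, 6.43 and 7.12 FPKM in FGL1-OE (log2 fold change 0.22, SE 0.20). Of its 31-base words, 87.1% lie in an annotated transcript of HIST1H3J as well.

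HIST1H2AD (chr6:26199079-26199471, GRCh37) had the largest difference of all members. Its level was 2.96, 3.36 and 1.80 FPKM in NC and at 0.361, 0.883 and 0.463 FPKM in FGL1-OE. The highest FGL1-OE library was less than the lowest NC library. The log2 fold change was -1.23 (SE 0.22), and stayed between -1.42 and -1.10 without any single library. GENCODE v29 has a longer gene, AL031777.3, whose transcript contains 98.1% of the words of HIST1H2AD and all words of HIST1H3D, and which is not among the genes listed. HIST1H3D is among the 3 largest downward differences too. HIST1H2AG completes these 3, with 2.07, 1.92 and 1.58 FPKM in NC and 1.16, 1.53 and 1.71 FPKM in FGL1-OE, where FGL1-OE 3 was above NC 3 (log2 fold change -0.22, SE 0.16). The remaining H2A members were HIST1H2AE, HIST1H2AI, HIST1H2AJ, HIST1H2AK, HIST1H2AL and HIST2H2AC, with means between 0.660 and 2.83 FPKM and log2 fold changes between -0.16 and 0.29, and HIST2H2AB, which was not tested. Among the 12 tested H2A genes 8 were higher and 4 lower, with a median of 0.16, which was 0.10 without NC 3 and likewise without FGL1-OE 2.

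H2B genes gave the highest readings. HIST1H2BK (chr6:27114197-27114577, GRCh37) was at 113, 84.5 and 109.6 FPKM in NC and at 122, 109 and 111 FPKM in FGL1-OE. HIST1H2BD was at 15.9, 32.4 and 18.9 FPKM in NC and at 16.2, 19.9 and 21.0 FPKM in FGL1-OE. NC 2 was the lowest library for the former and the highest for the latter. The log2 fold changes were 0.16 (SE 0.17) for HIST1H2BK and -0.17 (SE 0.26) for HIST1H2BD, and without NC 2 they were 0.032 and 0.12. Of the 31-base words of HIST1H2BK, 86.3% occur in other genes, and H2BFS alone holds 74.4%, so that its FPKM is uncertain. HIST1H2BC was at 7.89, 8.54 and 7.53 FPKM in NC and at 10.4, 8.32 and 9.18 FPKM in FGL1-OE, with only FGL1-OE 2 inside the range of NC (log2 fold change 0.19, SE 0.15). HIST2H2BE, known to make a polyadenylated mRNA, was at 3.94, 8.11 and 4.34 FPKM in NC and at 6.13, 5.42 and 5.97 FPKM in FGL1-OE, all of them between the lower pair of NC libraries and NC 2 (log2 fold change 0.14, SE 0.24).

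The largest upward difference was that of HIST1H2BL (chr6:27775222-27775709, GRCh37), whose transcript ends near the stem-loop shown above. Its level was 0.728, 1.78 and 1.56 FPKM in NC and at 3.35, 2.60 and 3.77 FPKM in FGL1-OE, without overlap of the groups. The means were 1.36 ± 0.555 and 3.24 ± 0.590 FPKM (SD, n = 3), with a log2 fold change of 0.87 (SE 0.22). HIST1H2BJ was at 1.39, 3.03 and 1.96 FPKM in NC and at 2.83, 4.02 and 3.85 FPKM in FGL1-OE. NC 2 was above FGL1-OE 1 here (log2 fold change 0.57, SE 0.22). The other tested H2B members, HIST1H2BG, HIST2H2BF, HIST1H2BO and HIST1H2BF, had means between 0.542 and 3.39 FPKM and log2 fold changes between -0.093 and 0.37, while HIST1H2BH and HIST1H2BE were not tested. Among 10 tested H2B genes 7 were higher and 3 lower, with a median of 0.16.

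H3 genes were the lowest of the 5 types and did not share a direction. HIST1H3D was at 2.54, 1.81 and 2.95 FPKM in NC and at 2.10, 1.41 and 1.95 FPKM in FGL1-OE, where the groups overlapped (log2 fold change -0.28, SE 0.19). The means of HIST1H3A, HIST1H3B, HIST1H3C, HIST1H3E, HIST1H3G, HIST1H3H, HIST2H3A and HIST2H3C lay between 0.571 and 2.17 FPKM, with log2 fold changes between -0.064 and 0.23. HIST2H3A and HIST2H3C consist of the same words, and HIST2H3D was not tested. The median of the 9 tested H3 genes was -0.032, with 4 higher and 5 lower, and it was 0.087 when only genes with a mean of at least 1 FPKM were kept and 0.16 without FGL1-OE 2.

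Of the 11 tested H4 genes, 10 had higher fitted values in FGL1-OE on the log2(FPKM + 1) scale, with a median log2 fold change of 0.20, which was 0.31 without NC 1. The median deviation of the H4 genes from their means over the 6 libraries was -0.19, -0.24 and -0.13 in NC 1 to 3. It was 0.28, 0.097 and -0.032 in FGL1-OE 1 to 3, so FGL1-OE 3 lay closest to NC. All H4 genes encode nearly the same short core histone, which pairs with H3. The most abundant, HIST1H4C, was at 16.1, 12.7 and 14.7 FPKM in NC and at 20.2, 17.5 and 13.1 FPKM in FGL1-OE, so that FGL1-OE 3 lay inside the range of NC (log2 fold change 0.20, SE 0.19). The difference of HIST1H4C was 0.066 without FGL1-OE 1, 0.11 without NC 2 and 0.36 without FGL1-OE 3. HIST2H4A was at 4.95, 11.02 and 6.05 FPKM in NC and at 8.42, 6.84 and 8.95 FPKM in FGL1-OE, with NC 2 above all others (log2 fold change 0.18, SE 0.27). HIST2H4B, which shares 95.2% of its words with HIST2H4A, was at 4.88, 9.22 and 7.86 FPKM in NC and at 6.25, 6.09 and 9.06 FPKM in FGL1-OE, again with NC 2 as the highest (log2 fold change -0.014, SE 0.25).

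HIST1H4J (chr6:27791886-27792258) and HIST1H4K (chr6:27798994-27799305, both GRCh37) gave nearly the same profile. HIST1H4J was at 0.999, 1.39 and 1.59 FPKM in NC and at 2.52, 2.65 and 2.22 FPKM in FGL1-OE. HIST1H4K was at 1.20, 1.70 and 1.64 FPKM in NC and at 2.97, 2.88 and 2.32 FPKM in FGL1-OE. In each, all FGL1-OE libraries lay above all NC libraries. The log2 fold changes were 0.58 (SE 0.16) and 0.57 (SE 0.16). Every word of the HIST1H4K transcript lies in that of HIST1H4J, and 82.2% of the words the other way, so that these are not 2 independent measurements. HIST4H4, the single member on chromosome 12, was at 0.382, 0.593 and 0.357 FPKM in NC and at 0.797, 0.683 and 0.678 FPKM in FGL1-OE, higher without overlap but at a low level (log2 fold change 0.25, SE 0.14). The other tested H4 genes, HIST1H4A, HIST1H4B, HIST1H4D, HIST1H4E and HIST1H4H, had means between 0.713 and 3.38 FPKM and log2 fold changes between 0.076 and 0.36. For HIST1H4A and HIST1H4B the mean FPKM was lower in FGL1-OE, at 3.29 against 3.48 in NC and at 2.03 against 2.07, although the fitted values on the log scale were higher. HIST1H4L was not tested, and was listed at 0 in NC 1, FGL1-OE 2 and FGL1-OE 3 and at 1.63 FPKM in NC 2.

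**Figure D3:**
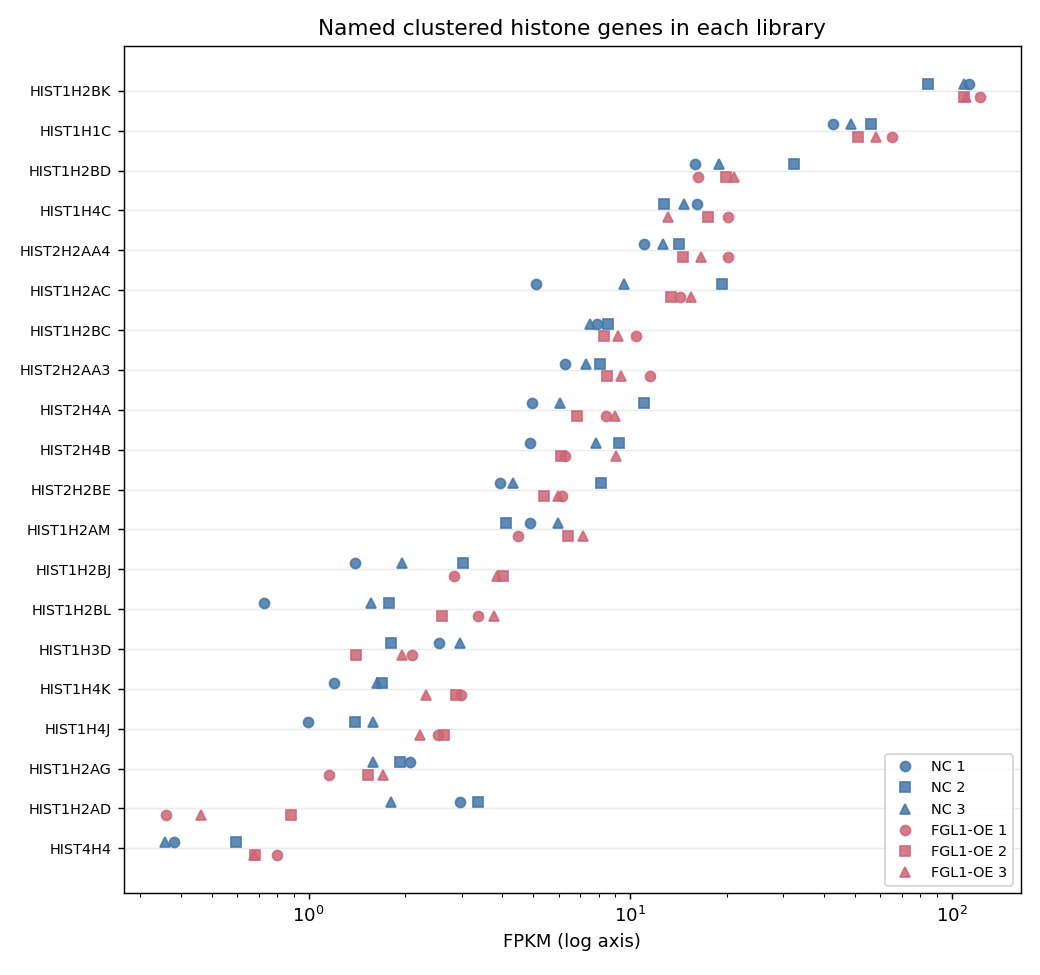
Each row is 1 of the 20 clustered histone genes described by library, ordered by mean FPKM, with FPKM on a logarithmic horizontal axis, NC libraries in blue and FGL1-OE libraries in red (circle, square and triangle for library 1, 2 and 3). The colours separate fully in HIST2H2AA4, HIST2H2AA3, HIST1H2BL, HIST1H4K, HIST1H4J and HIST4H4, with FGL1-OE to the right, and in HIST1H2AD, with FGL1-OE to the left.

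The position in the clusters was set beside these values. The median log2 fold change was 0.14 both in the 14 tested HIST1 genes nearer the centromere on chromosome 6 and in the 23 of the other stretch. The 9 tested HIST2 genes had a median of 0.15. H2A and H2B genes often stand back to back and share a promoter, and 7 such pairs lie within 500 bases of each other. In 5 of the 7 pairs both genes had the same sign of difference. Since 33 of the 47 tested members were higher, members that are not neighbours would often share a sign too. HIST1H2BL, at 0.87, stood beside HIST1H2AI, at 0.11, and HIST1H2AD, at -1.23, beside HIST1H2BF, at -0.093 (log2 fold change). The signs differed for HIST1H2BJ and HIST1H2AG and for HIST1H2AM and HIST1H2BO.

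The transcript class was then compared between libraries. Members whose transcript ends near the stem-loop were higher in FGL1-OE in 5 of 5 tested genes, with a median log2 fold change of 0.41. The 5 are HIST1H2AE, HIST1H2AI, HIST1H2BL, HIST1H4J and HIST2H2AA4. The classes can share reads. All words of HIST1H4K, classed as coding sequence only, lie in HIST1H4J, and HIST2H2AA3, the copy of HIST2H2AA4, was not classed. A class also need not name the main form. HIST1H4H and HIST1H2BJ counted as extended or spliced. Yet their short or coding-only transcripts had the highest means (3.71 and 2.59 FPKM), whereas in HIST1H2BD the spliced form did. HIST1H2BE, also of this class, was not tested and had a lower gene mean in FGL1-OE, at 0.336 against 0.594 FPKM in NC. Its listed transcript had means of 1.38 FPKM in FGL1-OE and 1.23 FPKM in NC. The median was 0.16 for 19 members annotated with coding sequence only (12 higher, 7 lower) and 0.12 for 16 with extended or spliced transcripts (10 higher, 6 lower). NC 1 and NC 2 differed by class. Among the coding-only members 13 of 19 were higher in NC 1, with a median of NC 2 minus NC 1 of -0.39 on the log2(FPKM + 1) scale, while 12 of 16 extended or spliced members were lower in NC 1, with a median of 0.24. Over all genes tested, 5346 were higher and 6663 lower in NC 1, with a median of 0.11. These classes come from an annotation release other than the authors', and were compared after the values had been seen, so they stand as a description.

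**Figure D4:**
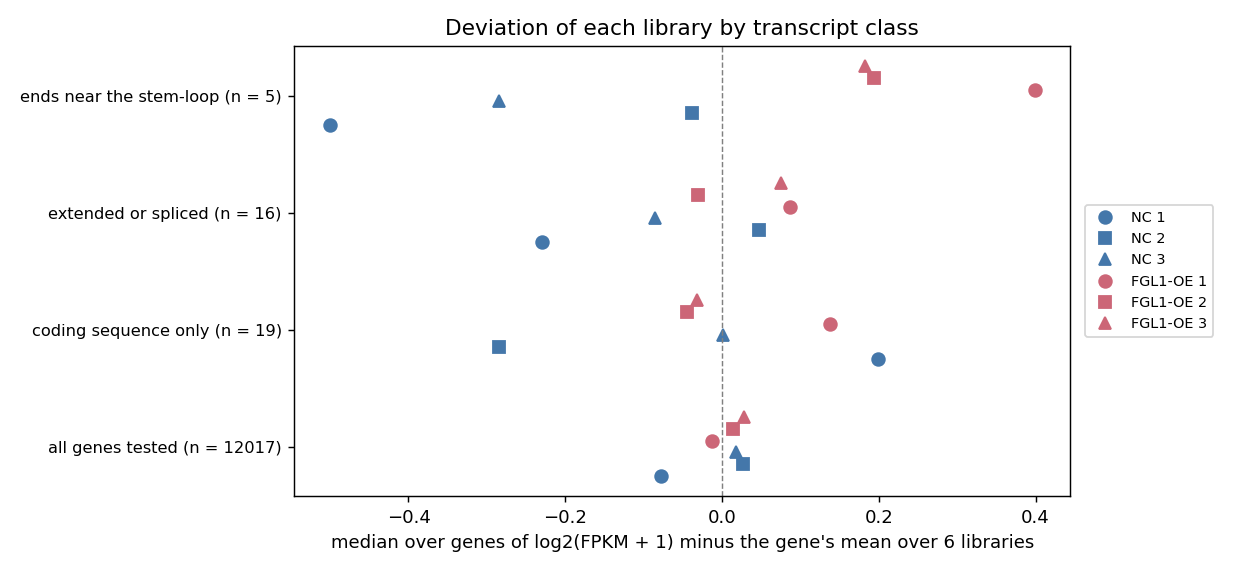
For each library, the horizontal axis gives the median over genes of log2(FPKM + 1) minus the gene's mean over the 6 libraries, for all genes tested and for 3 transcript classes of clustered histone genes on the vertical axis. NC 1 and NC 2 lie at opposite sides among coding-only members (0.20 and -0.28) and in reverse order among extended or spliced members (-0.23 and 0.047). All FGL1-OE libraries lie to the right of all NC libraries among the 5 tested genes that end near the stem-loop, which leave out HIST1H2BE.

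The transcript table separates the forms of some members. HIST1H2BD has a spliced transcript (ENST00000289316), which was at 16.3, 35.4 and 20.7 FPKM in NC and at 17.8, 21.4 and 22.9 FPKM in FGL1-OE. Its unspliced transcript (ENST00000377777), which ends 39 bases after the stem-loop, was at 2.02, 0.635 and 0.137 FPKM in NC and at 0.158, 0.872 and 0.509 FPKM in FGL1-OE. The spliced form was thus the main reading in all libraries. For HIST1H4H the short transcript that ends 18 bases after the stem-loop had a mean of 3.71 FPKM and the longer one 1.29 FPKM. The gene FPKM was not the sum of the transcripts. The 1 listed transcript of HIST2H4B was at 5.09 and 2.00 FPKM in NC 2 and NC 3 and under 0.005 FPKM in the other 4 libraries, whereas the gene was at 4.88 FPKM or more in all 6.

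Genes that act with the clustered histones were taken from 4 lists, and in none did a gene pass the threshold on the adjusted p-value. The 11 listed replication-independent histone genes, whose mRNAs carry poly(A) tails, had a median log2 fold change of 0.013, with 6 higher and 5 lower. H2AFZ, a variant of H2A, was at 122, 79.9 and 118 FPKM in NC and at 107, 106 and 104 FPKM in FGL1-OE. H1F0 was at 61.0, 76.3 and 68.3 FPKM in NC and at 70.5, 69.1 and 71.0 FPKM in FGL1-OE. H1FX was at 95.4, 47.3 and 75.5 FPKM in NC and at 71.2, 57.9 and 65.6 FPKM in FGL1-OE. In all 3 the FGL1-OE libraries fell within the range of NC. CENPA, the H3 variant of centromeres, was at 14.8, 15.6 and 14.7 FPKM in NC and at 15.9, 17.3 and 17.3 FPKM in FGL1-OE (log2 fold change 0.15, SE 0.14). It was the 1 gene of this list without overlap, as in 4.09% of all genes upward.

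Of 25 listed genes of histone mRNA processing and transcription, 14 were higher and 11 lower, with a median of 0.046. SLBP was at 50.5, 58.8 and 46.0 FPKM in NC and at 48.8, 44.4 and 53.0 FPKM in FGL1-OE, which overlap (log2 fold change -0.082, SE 0.16). SNRPB and SNRPD3, core proteins of spliceosomal particles of which the U7 particle that cuts histone mRNA also has copies, were measured at 125 to 279.8 FPKM and at 103 to 144 FPKM, with log2 fold changes of -0.061 and 0.047. The groups of both overlapped. ZNF473, a component of histone mRNA processing that was picked after its values were seen, was the 1 gene of this list with an unadjusted limma p-value under 0.05. Over all genes this was found for 1.21% upward and 0.807% downward. ZNF473 was at 2.06, 2.18 and 4.67 FPKM in NC and at 4.55, 4.77 and 4.93 FPKM in FGL1-OE, with NC 3 inside the range of FGL1-OE (log2 fold change 0.60, SE 0.25).

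The 19 histone chaperone genes had a median of 0.0086 (10 higher, 9 lower), and SSRP1, SUPT16H and ANP32E, the highest of them, had log2 fold changes of 0.030, 0.053 and -0.17 with overlapping groups. Among 16 S phase genes 11 were higher and 5 lower, with a median of 0.054. The groups did not overlap in 4 of these, all higher in FGL1-OE, where this was found for 4.09% of all genes. PCNA, the sliding clamp of DNA polymerase, was at 152, 181 and 165 FPKM in NC and at 191, 188 and 188 FPKM in FGL1-OE. TYMS, which makes thymidylate, was at 145, 161 and 171.1 FPKM in NC and at 172, 174 and 171.4 FPKM in FGL1-OE. For TYMS the margin between NC 3 and FGL1-OE 3 was narrow. CDC6, which loads the replicative helicase, was at 36.0, 44.02 and 42.2 FPKM in NC and at 44.4, 47.6 and 48.3 FPKM in FGL1-OE. CCNE1, the cyclin E1 that drives entry into S phase, was at 8.58, 12 and 11.8 FPKM in NC and at 13.3, 14.0 and 12.6 FPKM in FGL1-OE. The log2 fold changes of these 4 genes were between 0.12 and 0.29, while TK1, the third highest gene of the list, overlapped at 0.041. The part of S phase in the histone values was not tested.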

How the data were processed

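RNA-seq of 6 TE-1 libraries (3 NC, 3 FGL1-OE) was analysed. The authors deposited FPKM values of 12180 genes and 33090 transcripts, scaled by them to length and depth. The submitters' processing notes name StringTie and GRCh37, and other tools and versions are not given in the sources used here. The deposited tables also hold the authors' own comparison of the groups (log2 fold changes, fold changes, p-values and group means), which was not used.

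Genes with a mean FPKM of 0.5 or more were fitted with limma 3.58.1 (lmFit, eBayes, R 4.3.3) on log2(FPKM + 1), with a pseudocount of 1 and no covariates. P-values are two-sided and were adjusted over all 12017 genes by the Benjamini-Hochberg method with a threshold of 0.05. The fit was run on simulated data with the same spread in both groups, which differs from these data. That run therefore does not tell how small a change of the members could have been found. Members, lists and named genes were chosen with earlier results of these data known. Values in every library are given for the 12 most abundant members, those whose groups did not overlap and the 3 largest differences in each direction, and the 3 most abundant genes of each list and those without overlap are named. Transcript and promoter sequences came from GENCODE v29 and RefSeq (Python 3.11.15), whose build is not that of the tables. Lists were described by counts and medians, without a test. Alternatives were leaving out each library, a replicate block, a pseudocount of 0.1, a stricter filter (1 FPKM) or none and quantile normalization. Further ones were scaling to a common sum, transcript sums and, for the members' median, omission of all H3 and H4 genes, HIST2H2AA3 and HIST2H2AA4.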

Additional observations from a re-analysis of the deposited data

How the results depend on the processing

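FGL1 kept its direction and its adjusted p-value under 0.05 under every alternative run, with log2 fold changes from 5.16 to 8.12. The median log2 fold change of the clustered histone genes stayed between 0.11 and 0.21 under all 14 alternatives, and was 0.12 from transcript sums. It was 0.15 when all H3 and H4 genes, HIST2H2AA3 and HIST2H2AA4 were left out. That omission went by gene name and kept other members that share most of their words, such as HIST1H2AD (98.1%) and HIST1H2BK (86.3%). Leaving out single libraries gave 1 to 7 genes with an adjusted p-value under 0.05. An unadjusted limma p-value under 0.05 was then found for 3 to 12 members upward and 1 to 3 downward. Over all genes it was found for 0.682% to 11.2% upward and 0.458% to 10.6% downward. Without overlap were 8 to 14 members upward and 1 to 5 downward. The highest counts came without NC 2. Over all genes, the same refits left 5.58% to 21.6% without overlap upward and 4.77% to 21.2% downward. In the same refits the medians of the lists ranged from -0.17 to 0.041 for replication-independent histones, from -0.045 to 0.062 for processing and transcription, from -0.048 to 0.019 for chaperones and from 0.049 to 0.13 for S phase genes. Of the 20 members described by library, 14 kept their sign under every alternative run for them. The others reversed: from transcript sums, HIST1H2AC was at -0.0034 and HIST4H4 at -0.070. With single libraries left out, HIST1H2BD ranged from -0.37 to 0.12 (positive without NC 2), HIST2H2BE from -0.030 to 0.41 and HIST2H4A from -0.029 to 0.48 (both negative without NC 1), and HIST2H4B from -0.25 to 0.15 (0.060 without FGL1-OE 1, 0.076 without FGL1-OE 2, 0.15 without NC 2 and 0.051 without NC 3). From transcript sums HIST2H4B kept its negative sign but was at -1.39, against -0.014 in the fit of the gene values. The cause of these shifts was not tested. HIST2H4A could not be fitted from transcript sums, and HIST4H4 not at a mean of at least 1 FPKM.

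With the replicate number as a replicate block, 1 gene had an adjusted p-value under 0.05. An unadjusted limma p-value under 0.05 was found for 4 members upward and 1 downward, beside 1.41% and 1.07% of all genes. The counts of members were those found without the block, as was the count of adjusted p-values. Deviations from the group means correlated between same-numbered libraries at 0.345, 0.282 and -0.0614, so the numbers were not taken to pair the samples. The depth of the libraries is unknown, so counting error at the low FPKM of most members cannot be given.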
